A study of Mus musculus with 9 samples.

Results

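Wide accessible domains of the mouse brain endothelium are stretches of at least 1500 bp that were called as a single peak by assay for transposase-accessible chromatin (Omni-ATAC-seq). A peak was taken as wide when its end minus its start was 1500 bp or more in any of 9 deposited peak lists, and wide peaks of all libraries that shared at least 1 bp were merged into a domain. Members were thus chosen by width, so numbers and widths of wide peaks are described here without a test. Of 253457 peaks, 2277 (0.898%) were wide, and they merged into 950 domains, against 92495 regions when all peaks were merged. The domains held 1.70 Mb in all, with a median length of 1696 bp and a range of 1500 to 3434 bp. Just inside the limit lay peaks of 1500 bp near Csrp2, Ssr3 and Wls, and just outside it peaks of 1499 bp near Esyt1, Bach1 and Mocos, the 6 of them in old EC-K4KO 1.

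Nuclei were purified from brain endothelial cells (ECs) of C57BL/6J mice. The labels place the libraries in 4 groups, namely young WT Cre (n = 2), young EC-K4KO (n = 3), old WT Cre (n = 2) and old EC-K4KO (n = 2). The WT Cre mice carried a tamoxifen-inducible Cre recombinase under the VE-cadherin (Cdh5) promoter with intact Klf4, and the EC-K4KO mice carried the same Cre with floxed Klf4, a zinc-finger transcription factor of the endothelium. Control and deleted mice were given tamoxifen alike, according to the study, mice of both sexes were used, and the labels give age only as young or old. All young libraries have one library-name prefix and all old libraries another, so age and this prefix cannot be told apart. The labels do not say whether replicates came from separate mice, so the p-values below measure the spread between these libraries only, which may be technical. Read totals were not analysed here, so depth is unknown and its part in the width of a peak was not tested. Of 35 endothelial marker genes, 33 were named by at least 1 peak, and so were 69 genes of 6 lists that mark other brain and blood cells. The peak lists do not show whether Klf4 was deleted. No domain was annotated to Klf4, whose widest peak measured 633 and 943 bp in young WT Cre, 936, 961 and 944 bp in young EC-K4KO, 1014 and 949 bp in the old WT Cre libraries and 1490 and 1113 bp in old EC-K4KO.

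In open chromatin the transposase can insert wherever nucleosomes are absent or loosely held. Most accessible sites are short, about the space that a few bound factors clear between neighbouring nucleosomes. Long accessible stretches are known at CpG islands, where unmethylated CpG-rich DNA spans the transcription start site (TSS), at genes switched on rapidly by stimuli, and at clusters of enhancers near genes that define a cell type. A broad peak also forms when a peak caller joins neighbouring sites.

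The domains were divided into 2 kinds by whether they cover an annotated TSS. They are shown here by the central 200 bases of 3 domains of the first kind and 2 of the second. The 3 were among the TSS-covering domains wide in the most libraries. The 2 were chosen likewise, but only among domains whose centre lies more than 10000 bp from a TSS. The reference is GRCm38.p6, which is the build mm10, the plus strand is given, and CpG dinucleotides are in capitals. The first 3 domains cover an annotated TSS, and their windows hold 24, 20 and 11 CpG dinucleotides. 4930526I15Rik is a RIKEN transcript at the start of Ppp2r3d, which encodes a regulatory subunit of protein phosphatase 2A. Midn encodes midnolin, which brings nuclear proteins to the proteasome, and Cdkn1a encodes the cell cycle inhibitor p21.
4930526I15Rik, chr9:124424306-124424505: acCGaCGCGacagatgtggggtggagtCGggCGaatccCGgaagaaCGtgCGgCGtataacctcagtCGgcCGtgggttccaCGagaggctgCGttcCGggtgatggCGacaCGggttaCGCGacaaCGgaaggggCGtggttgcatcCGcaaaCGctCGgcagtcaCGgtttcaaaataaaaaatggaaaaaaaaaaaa
Midn, chr10:80148628-80148827: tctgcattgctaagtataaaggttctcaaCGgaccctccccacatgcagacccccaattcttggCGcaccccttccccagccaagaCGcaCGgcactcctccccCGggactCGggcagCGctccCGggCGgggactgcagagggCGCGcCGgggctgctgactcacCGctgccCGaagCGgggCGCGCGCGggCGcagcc
Cdkn1a, chr17:29094530-29094729: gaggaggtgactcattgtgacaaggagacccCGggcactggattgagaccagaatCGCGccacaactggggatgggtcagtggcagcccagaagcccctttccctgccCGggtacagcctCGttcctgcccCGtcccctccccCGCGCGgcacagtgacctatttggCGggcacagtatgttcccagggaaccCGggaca
The centres of the next 2 domains lie more than 10000 bp from any TSS of GENCODE M21, and their windows hold 2 and 3 CpG dinucleotides. Bcar3 encodes an adaptor in integrin signalling and Bach2 a transcriptional repressor of the basic leucine zipper class.
Bcar3, chr3:122474740-122474939: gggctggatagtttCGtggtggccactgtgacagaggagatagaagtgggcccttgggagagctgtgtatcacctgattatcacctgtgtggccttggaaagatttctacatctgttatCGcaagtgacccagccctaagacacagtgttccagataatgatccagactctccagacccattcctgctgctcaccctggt
Bach2, chr4:32352119-32352318: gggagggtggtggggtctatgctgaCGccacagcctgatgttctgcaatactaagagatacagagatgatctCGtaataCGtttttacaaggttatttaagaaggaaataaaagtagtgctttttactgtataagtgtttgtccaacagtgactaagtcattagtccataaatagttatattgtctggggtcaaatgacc

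Of the 950 domains, 625 (65.8%) covered at least 1 TSS of GENCODE M21 and 325 covered none. The median CpG observed/expected ratio was 0.726 in TSS-covering domains (quartiles 0.585 and 0.833) and 0.269 in TSS-free domains (0.194 and 0.416). The 2 kinds overlapped, with a ratio of 0.646 in the TSS-free domain of Kdm6b wide in 8 libraries and 0.101 in the TSS-covering domain of Gbp2. The median GC content was 61.0% and 50.4%, and the median share of soft-masked repeat bases 8.21% and 12.1%, in the same order. A ratio of 0.6 or more, a usual threshold for a CpG island, was reached by 503 of all domains (52.9%). Of the TSS-free domains, 189 had their centre more than 10 kb and 37 more than 50 kb from the nearest TSS, with a median distance of 12708 bp. These are descriptions over domains, which are not replicates.

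**Figure D1:**
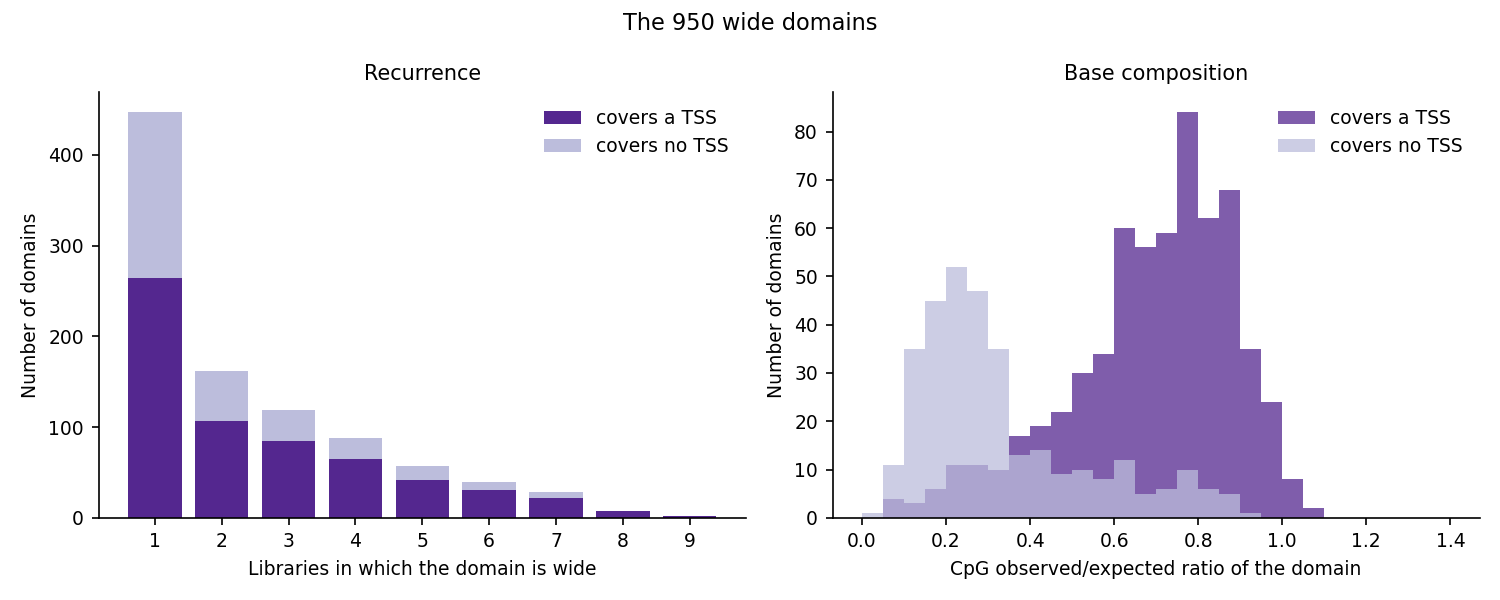
Left, number of domains (y axis) by the number of libraries in which each was wide (x axis), with TSS-covering domains in dark and TSS-free domains in light purple. Right, number of domains (y axis) by CpG observed/expected ratio (x axis) for the same 2 kinds, whose medians were 0.726 and 0.269.

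The authors' annotation gives each peak a class from the position of its centre. By the class of the widest peak, 330 domains (34.7%) were promoter-TSS, 295 intron, 217 intergenic, 97 exon and 11 transcription termination site. The classes of different wide peaks disagreed in 35 domains and the gene names in 14. A TSS was covered by 165 of the 295 intron domains, 85 of the 97 exon domains and 46 of the 217 intergenic domains. In all, 301 TSS-covering domains were not of class promoter-TSS. A wide peak can hold a TSS away from its centre. The class also rests on the authors' gene table and the TSS cover on GENCODE M21. At Klf9, an intergenic domain at -6075 bp covered the start of 2410080I02Rik. The part of each was not tested. The start sites of more than 1 gene lay in 166 domains (17.5%), such as Hnrnpdl with Enoph1, Naa38 with Cyb5d1, and Ddx5 with Cep95. The centre of the widest peak lay within 1000 bp of a TSS in 536 domains (56.4%), against 30.9% of all peaks, and at 10 to 50 kb in 172 domains and beyond 50 kb in 133.

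Over the TSS of a single gene, wide and narrower peaks alike reached further into the gene than ahead of it. Both sides were measured from the most upstream TSS of the gene in the peak. Where a peak holds several TSSs of its gene, this choice lengthens the downstream side by construction. Of 1134 such wide peaks, 60.1% extended further downstream, with medians of 1036 bp downstream and 710 bp upstream. At 950 bp downstream 55.6% of them still covered the position, and at 950 bp upstream 35.3%. Of 62288 narrower peaks over a TSS, 2.08% and 1.10% did so, and 23.1% and 14.5% covered 450 bp downstream and upstream, against 81.7% and 62.9% of wide peaks. A longer peak covers more by construction, so these shares were not tested. In a measure of the lean added after the data were seen, the centre lay downstream in 53.5% of wide and 49.0% of narrower peaks centred within 1000 bp of a TSS, a difference of 4.53 ± 7.03 points (SD, n = 9) in 7 of 9 libraries, which did not pass the test (adjusted p = 0.0820 over 2 added tests, exact sign-flip permutation). It passed at a limit of 1200 bp (7.62 points, adjusted p = 0.0117, exact), with q below 0.01 (6.07 points, adjusted p = 0.0430, exact), against as many of the strongest narrower peaks (35.3 points, adjusted p = 0.00781, exact) and without young EC-K4KO 2 (5.93 points, adjusted p = 0.0156, exact). The median extents differed between libraries, from 571 to 1256 bp upstream and from 789.5 to 1216 bp downstream, and young WT Cre 1, with 6 such peaks, was the library that reached further upstream than downstream.

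**Figure D2:**
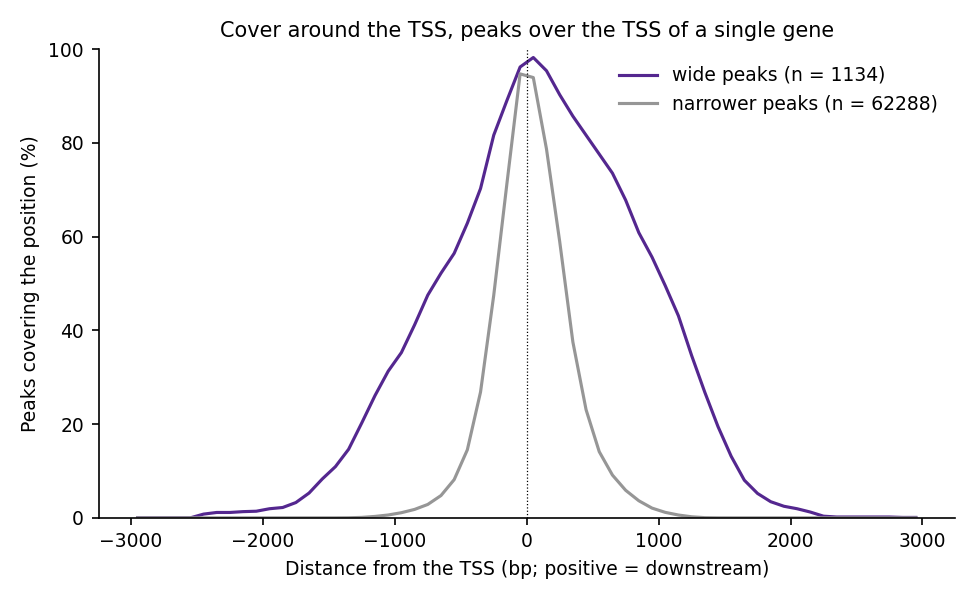
Share of peaks covering each position (y axis, %) by distance from the TSS (x axis, bp, positive downstream) for 1134 wide and 62288 narrower peaks over the TSS of a single gene, pooled over the 9 libraries. Of the wide peaks, 55.6% cover 950 bp downstream and 35.3% cover 950 bp upstream. The TSS is the most upstream one of the gene in the peak, which favours the downstream side where a peak holds several.

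The number of wide peaks differed widely between libraries. Young WT Cre lists held 8 and 15 wide peaks, young EC-K4KO lists 133, 129 and 191, old WT Cre lists 335 and 370, and old EC-K4KO lists 543 and 553. The groups did not overlap, and they ranked in that order. The lists themselves ranged from 6157 to 45026 peaks. Per 1000 peaks, wide ones numbered 1.30 and 1.56 in young WT Cre, 5.58, 5.10 and 6.82 in young EC-K4KO, 7.63 and 11.4 in the old WT Cre libraries, and 12.1 and 14.2 in old EC-K4KO, again without overlap. In lists cut to the same length, 6157 peaks, by keeping those with the highest -log10 p, wide peaks numbered 8 and 13, 61, 67 and 79, 91 and 96, and 105 and 111 in the same order of groups. The width of a wide peak differed less. Its median lay between 1644 and 1723 bp in every library, and peaks of 2000 bp or more ranged from 2 in each young WT Cre list to 98 in old EC-K4KO 2.

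**Figure D3:**
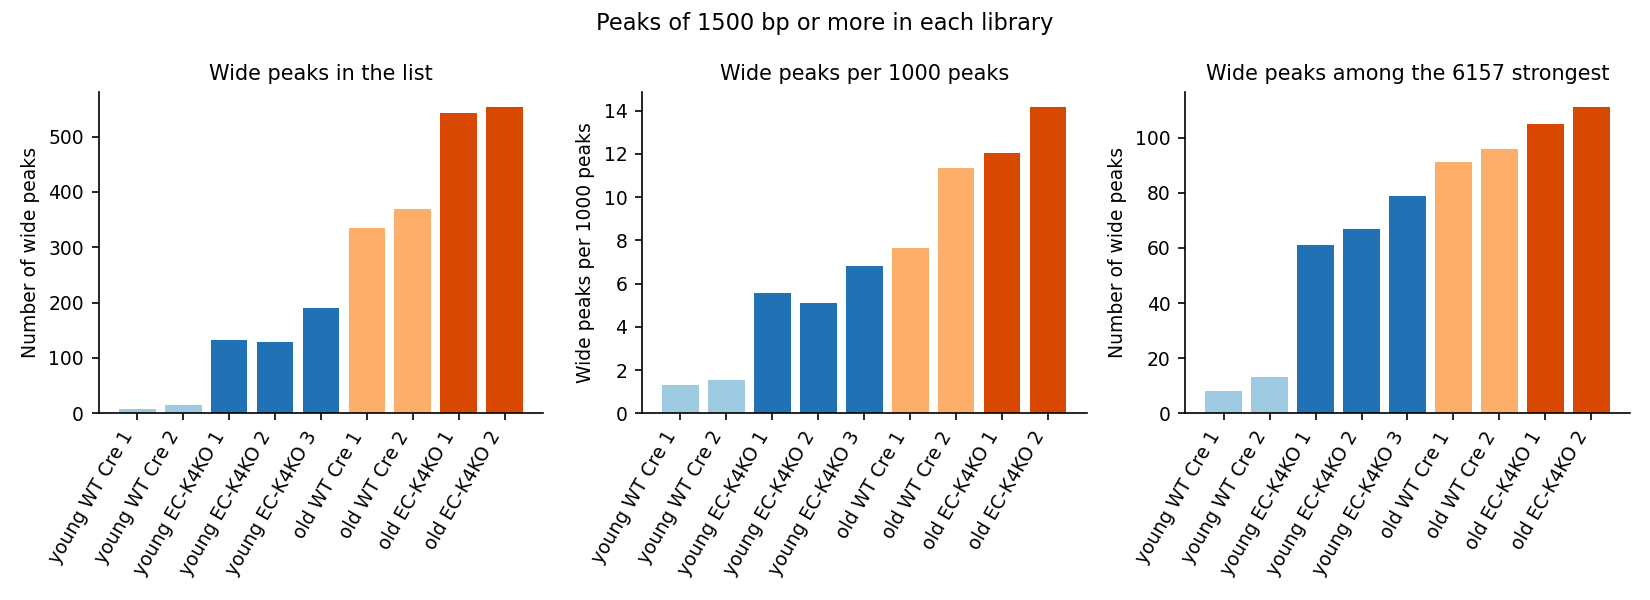
Wide peaks in each of the 9 libraries (x axis) as their number in the deposited list, their number per 1000 peaks, and their number among the 6157 strongest peaks (y axes). Bars are single libraries, coloured by group, and rise from 8 and 15 in young WT Cre to 543 and 553 in old EC-K4KO in the left panel.

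Most domains were not silent in the libraries where they were not wide. Of 6273 pairs of a domain and a library without a wide peak, 72.5% held a narrower peak, which covered a median of 49.2% of the domain, and 17.6% of those pairs held 2 or more separate peaks. A peak of any width was present in all 9 libraries in 301 domains (31.7%), where the background over all merged regions was 5.27%. A peak in the 7 libraries other than young WT Cre and in neither young WT Cre library marked 185 domains (19.5%), where the background was 3.94%. A wide region has more length to be hit by a peak, so these shares are descriptions. The share of domains with any peak was 36.2% and 49.2% in young WT Cre, 74.4%, 86.7% and 88.7% in young EC-K4KO, and between 94.9% and 96.5% in the 4 old libraries. The lists were also shortest in young WT Cre, with 6157 and 9598 peaks, against 23848 to 27992 in young EC-K4KO and 32555 to 45026 in the old libraries. List length was not taken into account in these shares. In the 301 domains with a peak in every library, the median width of the widest peak was 528 and 690 bp in young WT Cre, 1140, 1303 and 1410 bp in young EC-K4KO, 1501 and 1526 bp in the old WT Cre libraries, and 1579 and 1580 bp in old EC-K4KO. These domains were chosen by width, with 8 and 13 of them wide in young WT Cre and 197 and 208 in old EC-K4KO, so their widths depend on that choice. Over all peaks of a list, the groups overlapped in median width. It was 346 and 354 bp in young WT Cre, 388, 388 and 402 bp in young EC-K4KO, 375 and 431 bp in old WT Cre, and 418 and 451 bp in old EC-K4KO.

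Wide calls recurred between libraries. A single library made the call in 447 domains (47.1%), 2 or more in 503, and 7 or more in 38. Of the wide peaks of each library, the share that fell in a domain formed by the other 8 libraries was 100% and 93.3% in young WT Cre, 61.7%, 94.6% and 89.0% in young EC-K4KO, 84.5% and 85.4% in the old WT Cre libraries, and 76.4% and 76.0% in old EC-K4KO. Young EC-K4KO 1 stood apart from its replicates, with 51 domains of its own against 7 and 21. In those 51, the widest peak of any other library had a median width of 680 bp, against 1122 and 1244 bp for the domains of its replicates. Domains wide in more libraries were more often at a TSS. A TSS was covered by 59.1% of 447 domains wide in 1 library, 68.3% of 281 wide in 2 or 3, 75% of 184 wide in 4 to 6, and 81.6% of 38 wide in 7 or more. The median CpG observed/expected ratio was 0.547, 0.625, 0.672 and 0.738 over the same classes, and the median length 1614, 1733, 1831 and 1956 bp. A domain merged from more libraries is longer by construction, and a longer one has more chances to hold a TSS. These trends are therefore descriptions.

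Few domains were wide in nearly all libraries, and 2 were wide in all 9. Widths given from here on are those of the widest peak of a library in the domain. Where a domain was split into several peaks, that width is only a part of the accessible length. The 4930526I15Rik domain (chr9:124422908-124425904) measured 2945 and 2584 bp in young WT Cre, 2887, 2934 and 2982 bp in young EC-K4KO, 2997 and 2933 bp in the old WT Cre libraries, and 2991 and 2990 bp in old EC-K4KO. It was almost equally long in each library except young WT Cre 2. The Midn domain (chr10:80147741-80149714) measured 1735 and 1844 bp, 1876, 1952 and 1928 bp, 1933 and 1880 bp, and 1949 and 1894 bp in the same order. Here the 2 young WT Cre values were the lowest of the 9.

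A further 8 domains were wide in 8 libraries. Kdm6b, which encodes a histone H3 lysine 27 demethylase, held the longest of them (chr11:69408608-69411930), an intron domain that covers no TSS. Its widest peak measured 2290 and 1176 bp in young WT Cre, 3218, 3223 and 3264 bp in young EC-K4KO, 3290 and 3299 bp in the old WT Cre libraries, and 3287 and 3268 bp in old EC-K4KO. Both young WT Cre libraries lay below all others, which spanned a narrow range. Jun, a subunit of the AP-1 transcription factor, had a domain over its TSS (chr4:95051659-95053455) of 1297 and 1551 bp, 1578, 1706 and 1688 bp, 1700 and 1752 bp, and 1790 and 1733 bp, in which young WT Cre was again lowest. The Cdkn1a domain (chr17:29093553-29095706) measured 1958 and 1968 bp in young WT Cre, 900, 2093 and 2093 bp in young EC-K4KO, 2141 and 2106 bp in the old WT Cre libraries and 2144 and 2127 bp in old EC-K4KO. Young EC-K4KO 1 was low there, where it held 2 peaks. It was also low at Ddit3, a stress-induced transcription factor, with 648 bp against 1997 and 2216 bp in its replicates. Rbpj, the DNA-binding partner of Notch, was wide in all libraries but young EC-K4KO 2, where the wider of 2 peaks measured 540 bp. The others were Egr1, an immediate early zinc-finger factor, Ccng2, an atypical cyclin of arrested cells, Sema4c, a semaphorin, and 1700012D01Rik, over the start sites of Nab2, a corepressor of EGR factors, and Nemp1.

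Wide domains also lay next to each other. Of neighbouring domains, 37 pairs were within 25 kb and 13 within 10 kb. On chromosome 11, 3 domains wide in 7 or more libraries stood within 24.1 kb (chr11:69395313-69419375), over the shared promoter region of Naa38 and Cyb5d1 and at 2 places of Kdm6b. On chromosome 10, Midn and Cirbp, which encodes a cold-inducible RNA-binding protein, had domains within 13.5 kb (chr10:80147741-80161218). In all, 905 genes named a domain, 35 of them 2 domains and 5 of them 3, namely Malat1, Zfp608, Kbtbd11, Cxxc5 and Bcor. Malat1, an abundant nuclear non-coding RNA, had a domain over its TSS (chr19:5802391-5804000) and 2 others on either side of it.

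**Figure D4:**
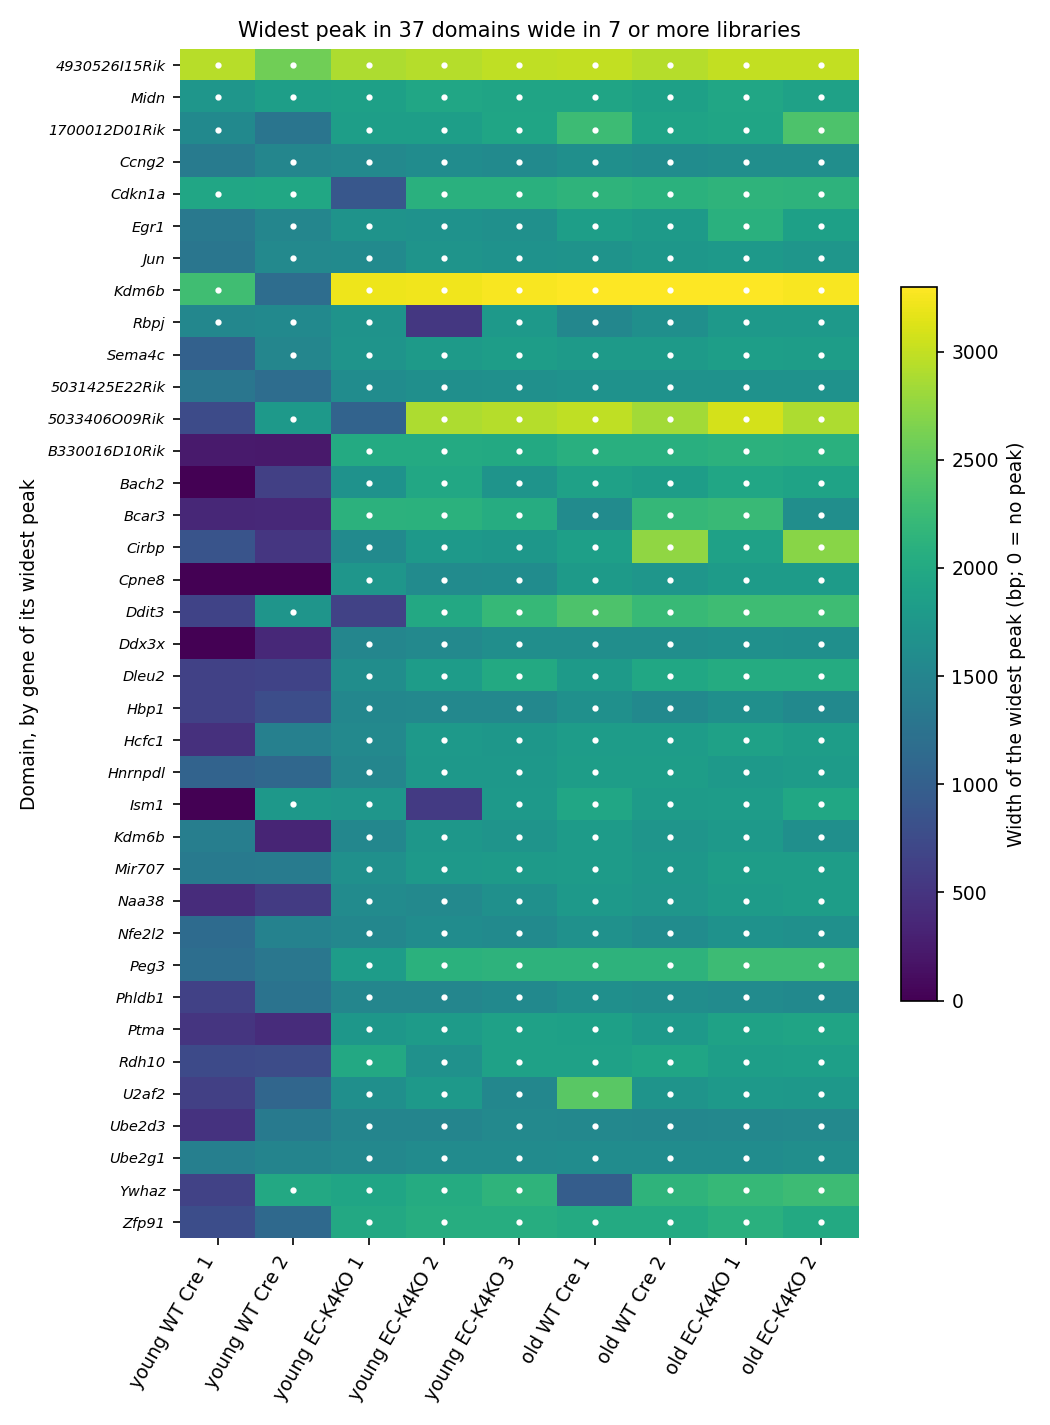
Width of the widest peak (colour, bp, 0 where no peak was called) in each library (columns) for 37 of the 38 domains wide in 7 or more libraries (rows, named by gene). White dots mark peaks of 1500 bp or more, which number 6 and 12 in the young WT Cre columns and 34 to 37 in the others.

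The widest single peaks were not always recurrent. Synj2, which encodes a phosphoinositide phosphatase, held the longest peak of all, 3434 bp in old EC-K4KO 2 (chr17:5975428-5978861). At that domain no peak was called in young WT Cre, the young EC-K4KO libraries had 277, 489 and 1319 bp, old WT Cre 2855 and 1857 bp, and old EC-K4KO 1 had 1875 bp. Epas1, which encodes the hypoxia-inducible factor HIF-2alpha, held an intron domain 48105 bp from the TSS to which it was assigned (chr17:86800545-86803423), with 898 and 485 bp in young WT Cre, 1009, 2512 and 2774 bp in young EC-K4KO, 2826 and 2842 bp in the old WT Cre libraries, and 2849 and 2735 bp in old EC-K4KO. The young WT Cre libraries and young EC-K4KO 1 were low there and the other 6 were close to each other. At position -14572 bp from the TSS of Cdh5, the VE-cadherin gene, a peak of 2901 bp in young EC-K4KO 1 was met by 1 peak in old WT Cre 1, of 1303 bp, and by none in the other 7 libraries (chr8:104085603-104088503). Of the 36-mers of that Cdh5 domain, 23.5% occurred more than once in the genome. Arhgef2 had 2925 bp in old EC-K4KO 2 and at most 1284 bp elsewhere (chr3:88620985-88623909). The young EC-K4KO libraries, the old WT Cre libraries and old EC-K4KO 1 held 2 peaks each there. Arid1b, a subunit of the BAF remodelling complex, was wide in young EC-K4KO 3 and in both old EC-K4KO libraries, with 1663, 2247 and 2855 bp. It measured 964 and 905 bp in young EC-K4KO 1 and 2 and 779 and 1419 bp in old WT Cre, and had no peak in young WT Cre (chr17:4993672-4996526).

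Genotype and age were compared through the domains wide in every library of a group, without a test. There were 4 such domains in young WT Cre, 41 in young EC-K4KO, 201 in the old WT Cre libraries and 354 in old EC-K4KO. Wide calls in every library of a group and in none outside it numbered 0, 1, 6 and 64. A group with more wide peaks in its lists has more chances of such calls, which was not taken into account. Nor was group size, since young EC-K4KO had to be wide in 3 libraries and each other group in 2. The 1 such domain of young EC-K4KO covered the start of Brwd1, a bromodomain protein (chr16:96081462-96083387), with 1758, 1722 and 1926 bp there, 642 and 299 bp in young WT Cre, and 929 to 1024 bp in the 4 old libraries. A peak was thus called there in each library. Each of the 4 old libraries held 2 separate peaks in this domain, and their values are the wider of the 2. For old WT Cre the widest included those at Ly86, an immune receptor partner, and 6530402F18Rik. At Ly86 (chr13:37452495-37454722) old WT Cre had 2228 and 1988 bp and old EC-K4KO 1041 and 1219 bp, there the wider of 2 peaks in each library. For old EC-K4KO they were at 1700019O17Rik, Gm31763 and Dhrs3, a retinaldehyde reductase. At Dhrs3 (chr4:144890668-144892931) old EC-K4KO had 2264 and 2192 bp, old WT Cre 1252 and 1238 bp, young EC-K4KO 605 and 546 bp in replicates 2 and 3 with no peak in replicate 1, and young WT Cre no peak.

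Within the old mice, 168 domains were wide in all 4 libraries, 80 in both old EC-K4KO and neither old WT Cre library, and 7 in the reverse. In those 80, the median widest peak was 1015 and 1044 bp in the old WT Cre libraries and 1628 and 1638 bp in old EC-K4KO, a contrast set by their choice. A peak stood in both old WT Cre libraries in 74 of them. Over all 950 domains, 95.68% held a peak in old WT Cre 1 and 94.95% in old WT Cre 2. The 2 old EC-K4KO lists also held more wide peaks in all. By age, 643 domains were wide in old libraries only and 85 in young libraries only, and 54 were wide in all 4 old and no young library. Each old list held 335 to 553 wide peaks and each young list 8 to 191. These counts were not set against that difference. Of 19 domains wide in a young WT Cre library, 15 were wide in 5 or more libraries.

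Class, base composition and repeats were not used to choose the members and were compared between wide and narrower peaks within each library, with a two-sided exact sign-flip permutation test over the 9 libraries (smallest p 0.00391) and Benjamini-Hochberg adjustment over 10 measures. Wide peaks were more often of class promoter-TSS, by 13.8 ± 6.55 points (SD, n = 9), at 43.4% against 29.7%, higher in 8 of 9 libraries (adjusted p = 0.0195 by the exact test). Counting any peak over a TSS in place of the class gave 39.9 points (adjusted p = 0.00977, exact), a measure in which a longer peak has more chances by construction. Their median CpG observed/expected ratio was higher by 0.270 ± 0.161, at 0.688 against 0.418, in 8 of 9 libraries (adjusted p = 0.0234, exact). In the 2 young WT Cre libraries the ratio of wide minus narrower peaks was near 0, at -0.032 and 0.0086, where narrower peaks had ratios of 0.753 and 0.705. The median share of soft-masked bases per peak was higher by 1.68 ± 0.598 points, at 8.0% against 6.31%, in 9 of 9 libraries (adjusted p = 0.0130, exact). Such a median can depend on peak length, which was not taken into account.

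**Figure D5:**
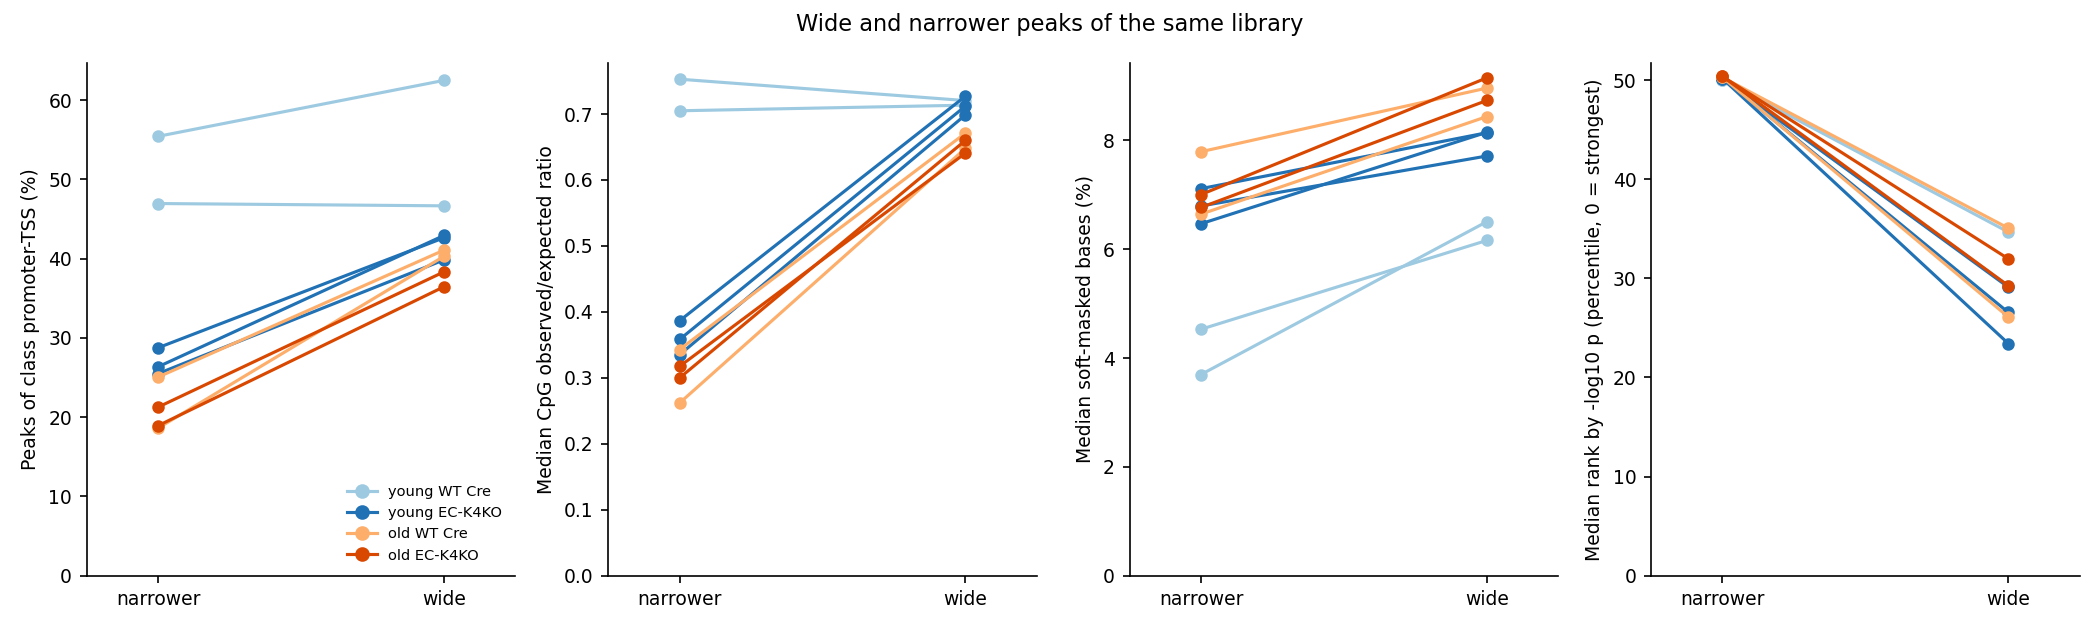
Narrower and wide peaks of each library (x axis, joined by a line per library, coloured by group) for the share of class promoter-TSS (%), the median CpG observed/expected ratio, the median share of soft-masked bases (%) and the median rank by -log10 p (percentile of the list) on the y axes. Means over the libraries were 29.7% and 43.4%, 0.418 and 0.688, 6.31% and 8.0%, and 50.2 and 29.5 for narrower and wide peaks.

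Wide peaks ranked high in their lists without being the strongest peaks. Ordered by -log10 p, their median lay at percentile 29.5 of the list (0 for the strongest), a difference of -20.7 ± 3.90 points from narrower peaks and nearer to the top in 9 of 9 libraries (adjusted p = 0.0130, exact). Strength and width come from the same coverage and are not independent of each other. Set against as many of the strongest narrower peaks, the differences in class and CpG ratio turned. Wide peaks were then less often of class promoter-TSS, by -38.1 points (adjusted p = 0.0130, exact), and lower in CpG observed/expected ratio, by -0.104 (adjusted p = 0.0195, exact). The strongest narrower peaks were thus still more often promoter-TSS and CpG-rich than the wide ones. The median share of soft-masked bases stayed higher in wide peaks, by 4.87 points (adjusted p = 0.0130, exact). The class follows the peak's centre, and 301 TSS-covering domains were not of class promoter-TSS. The part of this in the differences above was not tested. In a measure added after the data were seen, the centre lay within 1000 bp of a TSS in 67.7% of wide and 36.5% of narrower peaks, a difference of 31.2 ± 4.50 points in 9 of 9 libraries (adjusted p = 0.00781 over 2 added tests, exact), and by -15.9 points less often than in the strongest narrower peaks (adjusted p = 0.0312, exact). With a limit of 2000 bp in place of 1500 bp, the difference in promoter-TSS share was -8.51 points (adjusted p = 0.537, exact), and with peaks of q below 0.01 only it was 5.01 points (adjusted p = 0.378, exact). With q below 0.01 the difference in CpG ratio was 0.145 and no longer passed (adjusted p = 0.0703, exact).

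The make-up of the wide peaks was compared between groups with a two-sided exact permutation test within strata (60 arrangements, smallest p 0.0167) and adjustment over 6 tests. Class promoter-TSS made up 54.6% ± 11.2 (SD, n = 2) of wide peaks in young WT Cre mice, 41.8% ± 1.70 (n = 3) in the young EC-K4KO libraries, 40.7% ± 0.553 (n = 2) in the old WT Cre libraries and 37.4% ± 1.32 (n = 2) in old EC-K4KO. The genotype difference within age was -8.03 points (adjusted p = 0.0333, exact) and the age difference within genotype -9.15 points (adjusted p = 0.0400, exact). With wide peaks taken only from lists of equal length, they became 6.12 and 3.08 points (adjusted p = 0.433 and 0.900, exact), so neither call nor direction held. The 2 young WT Cre shares rest on 5 of 8 and 7 of 15 peaks, with 95% Wilson intervals of 30.6 to 86.3% and 24.8 to 69.9%, which cover counting error only. The median CpG observed/expected ratio of wide peaks was 0.717 ± 0.00494, 0.713 ± 0.0142, 0.659 ± 0.0164 and 0.650 ± 0.0136 in the same order of groups. It was lower in old mice by -0.0599 (adjusted p = 0.0333, exact), and the genotype difference of -0.0067 did not pass the test (adjusted p = 0.417, exact). In lists of equal length the age difference was -0.0015 (adjusted p = 0.950, exact). The median share of soft-masked bases was 6.34% ± 0.244, 8.0% ± 0.250, 8.70% ± 0.371 and 8.94% ± 0.294. It was higher in EC-K4KO by 0.955 points (adjusted p = 0.0400, exact) and in old mice by 1.65 points (adjusted p = 0.0333, exact), and in lists of equal length by 0.174 and 1.02 points (adjusted p = 0.825 and 0.100, exact). The difference of the genotype effect between ages did not pass the test (p = 0.333, 0.850 and 0.150 for the 3 measures, exact permutation test of the interaction).

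Motif patterns were counted on both strands of each peak, as letters only. They were GGGNGTGG for KLF factors, CCGGAAG for ETS factors, TGANTCA for AP-1, GCATGCGC for NRF1, AAGATGGCG for YY1 and AGGGGGC for the core of CTCF. Medians per peak depend on length, since most short peaks hold no match and their median was 0 for all 6 patterns. The median KLF density of wide peaks was 0.670 ± 0.113 matches per kb above that 0 (adjusted p = 0.0130, exact), and no other median passed. Against as many of the strongest narrower peaks the KLF difference was 0.317 per kb and did not pass (adjusted p = 0.273, exact). Matches per kb pooled over all peaks, an alternative added after the medians were seen, do not have this property. Pooled, KLF matches were denser in wide peaks, at 0.954 against 0.674 per kb, in 9 of 9 libraries (adjusted p = 0.0117 over 6 tests, exact). ETS matches were sparser, at 0.267 against 0.367 per kb, lower in 9 of 9 libraries (adjusted p = 0.0117, exact). The differences for AP-1, NRF1, YY1 and CTCF were -0.0529, 0.00476, -0.00606 and 0.0502 per kb (adjusted p = 0.299, 0.797, 0.787 and 0.299, exact). In the central 300 bp of the domains the KLF pattern stood in 18.7%, against 11.1% of all merged regions, the CTCF pattern in 11.8% against 6.57%, and the AP-1 pattern in 7.47% against 10.9%. The ETS pattern stood in 4.63% against 4.01%, so its direction in these windows was not that of the pooled density. NRF1 and YY1 stood in 1.05% each, against 0.975% and 0.912%. These window shares are descriptions, with no test.

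TSS-covering and TSS-free domains differed in these patterns as well. KLF matches numbered 0.851 per kb in TSS-covering and 0.655 in TSS-free domains, ETS matches 0.230 and 0.113, and AP-1 matches 0.254 and 0.412. An AP-1 match stood in 33.6% of TSS-covering and 48.6% of TSS-free domains. Some domains held groups of matches. The 200-base windows with the most matches are shown for the domains that hold the most KLF, YY1 and AP-1 matches, chosen after the counts were seen, with the matches in capitals on either strand (GRCm38.p6, plus strand).
4930526I15Rik, chr9:124422935-124423134: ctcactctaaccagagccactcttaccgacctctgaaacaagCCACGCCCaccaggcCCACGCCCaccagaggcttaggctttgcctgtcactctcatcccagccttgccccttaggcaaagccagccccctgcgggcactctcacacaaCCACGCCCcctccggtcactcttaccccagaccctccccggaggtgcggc
Peg3, chr7:6727809-6728008: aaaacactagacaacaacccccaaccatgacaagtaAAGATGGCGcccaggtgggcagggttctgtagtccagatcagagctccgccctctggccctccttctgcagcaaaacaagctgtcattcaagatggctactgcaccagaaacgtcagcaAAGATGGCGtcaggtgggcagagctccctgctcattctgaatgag
Kdm6b, chr11:69410672-69410871: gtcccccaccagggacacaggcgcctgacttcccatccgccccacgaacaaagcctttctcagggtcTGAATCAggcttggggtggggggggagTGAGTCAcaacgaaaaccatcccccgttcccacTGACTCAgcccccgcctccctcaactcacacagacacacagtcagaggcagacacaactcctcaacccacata
The 4930526I15Rik domain held 12 KLF matches, or 4.0 per kb. The Peg3 domain (chr7:6727458-6729735) held 8 YY1 matches, the most of the ranked domains, followed by those at Hcfc1 with 6 and Pcif1 with 3. Peg3 is a paternally expressed imprinted zinc-finger gene whose control region is known for repeated YY1 sites. Its domain covers no TSS and measured 1191 and 1302 bp in young WT Cre, 1820, 2113 and 2139 bp in young EC-K4KO, 2129 and 2132 bp in the old WT Cre libraries and 2265 and 2263 bp in old EC-K4KO. The Kdm6b intron domain and a domain near Dusp1, a phosphatase of MAP kinases, held the most AP-1 matches of the ranked domains, with 5 each.

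The genes named by the domains were counted against lists of endothelial, response and other cell type genes. Of 20035 genes that name any peak, 4.52% name a domain. Among 33 endothelial identity and barrier genes with a peak, 11 did so, namely Cdh5, Cldn5, Flt1, Erg, Ets1, Sox17, Esam, Eng, Vwf, Lef1 and Foxq1. Their TSS lay in a domain for Cldn5, Erg and Esam, and the rest were distal or next to the TSS. Of 69 genes with a peak in 6 lists of pericyte, microglia, astrocyte, oligodendrocyte, neuron, and neutrophil and erythroid genes, 0 named a domain. These counts and those of the lists below are descriptions, and the number of peaks per gene was not taken into account.

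The domains at endothelial genes differed in how many libraries called them wide. Cldn5, the main claudin of the blood-brain barrier, had a domain over its TSS (chr16:18775718-18777284) of 483 and 547 bp in young WT Cre, 1294, 1348 and 1290 bp in young EC-K4KO, 1511 and 1484 bp in the old WT Cre libraries and 1518 and 1484 bp in old EC-K4KO. It was short in young WT Cre and close to the limit in all other libraries. A second Cldn5 domain, at -72024 bp (chr16:18704012-18705634), measured 1241 and 1205 bp, 1278, 1346 and 1468 bp, 1623 and 1613 bp, and 1464 and 1531 bp, so here the young WT Cre peaks were nearly as long. Eng, the TGF-beta co-receptor endoglin, had an intron domain (chr2:32654672-32656340) of 421 and 1413 bp, 1453, 1546 and 1472 bp, 1630 and 1597 bp, and 1616 and 1616 bp. Calls in a single library made up the domains at Cdh5, Sox17, Flt1, Esam, Ets1, Vwf and Foxq1 and both domains at Erg. At Sox17, an endothelial transcription factor, young EC-K4KO 1 had 1737 bp and the other libraries at most 688 bp (chr1:4492107-4493843). Vwf, which encodes von Willebrand factor, had 1507 bp in old EC-K4KO 1, 1360 bp in old EC-K4KO 2 and 708 bp in old WT Cre 2, with no peak in the other 6 libraries (chr6:125558988-125560494).

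Immediate early and stress genes named a domain in 9 of 24 cases, namely Fos, Fosb, Jun, Junb, Egr1, Dusp1, Nfkbia, Cdkn1a and Sgk1, and 5 of them, Jun, Junb, Egr1, Cdkn1a and Sgk1, had the TSS in it. Sgk1, a stress-induced kinase, showed 712 and 886 bp in young WT Cre, 885, 1561 and 1613 bp in young EC-K4KO, 1711 and 1636 bp in the old WT Cre libraries and 1719 and 1680 bp in old EC-K4KO (chr10:21993152-21994876). Young EC-K4KO 1 lay with young WT Cre at this gene. Fos, an AP-1 subunit, had a domain 4528 bp downstream of its TSS (chr12:85477453-85479587) with no peak in young WT Cre, 191, 927 and 893 bp in young EC-K4KO, 1215 and 1678 bp in the old WT Cre libraries and 1796 and 1954 bp in old EC-K4KO. Junb was called wide in young EC-K4KO 1, at 2004 bp, and in old WT Cre 2, at 2117 bp, with 578 to 759 bp in the other 7 libraries (chr8:84978252-84980368). Each of those 7 held 2 peaks there.

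Of the 12 KLF genes listed, 7 named a domain, against 4.52% of all genes that name a peak. They were Klf2, Klf3, Klf7, Klf9, Klf13, Klf15 and Klf16, with the TSS inside for Klf3, Klf13, Klf15 and Klf16. The domains of Klf3, Klf7 and Klf15 were wide only in old EC-K4KO 2, at 1987, 1589 and 1613 bp. Klf2, the flow-responsive relative of Klf4 in ECs, had a domain 5943 bp from its TSS (chr8:72324091-72325852) of 555 and 440 bp in young WT Cre, 1307, 1429 and 848 bp in young EC-K4KO, 1665 and 1584 bp in the old WT Cre libraries and 1462 and 1685 bp in old EC-K4KO. Klf9, a glucocorticoid-responsive factor, had one of 1266 and 1360 bp, 1435, 1580 and 1618 bp, 2018 and 2041 bp, and 1630 and 2086 bp (chr19:23134109-23136273). Klf16 had 628 and 762 bp in young WT Cre and 1315 to 1863 bp in the other 7 libraries (chr10:80577259-80579149). Klf13 was wide only in young WT Cre 2, at 2081 bp, with 999 to 1324 bp in the other 8, and was the 1 domain called by a young WT Cre library alone (chr7:63937756-63939836). Each of those 8 libraries held 2 peaks there.

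Among 18 regulators of Notch, BMP and TGF-beta signalling, 5 named a domain, namely Notch1, Smad6, Smad1, Bmpr2 and Bambi. At Smad6, an inhibitor of BMP signalling, an intron domain (chr9:63970289-63971910) had no peak and 1344 bp in young WT Cre, 1439, 1556 and 1501 bp in young EC-K4KO, 1612 and 486 bp in the old WT Cre libraries, and 629 and 567 bp in old EC-K4KO. Its widest peak was shorter in both old EC-K4KO libraries than in any young EC-K4KO library. All old libraries held 2 peaks in this domain, and the young EC-K4KO libraries 1 each. Of the 36-mers of the domain, 10.7% occurred more than once in the genome. Of 18 housekeeping genes, 5 named a domain, namely Hsp90ab1, Hspa8, Ywhaz, Eif4a1 and Ddx5, so wide domains were not limited to endothelial or response genes. Of other families with a peak, domains were named by 4 of 37 histone genes (10.8%), 3 of 75 ribosomal protein genes (4.0%), 25 of 732 microRNA genes (3.42%), 0 of 41 small nucleolar RNA genes, 0 of 14 small nucleolar RNA host genes, 5 of 471 olfactory receptor genes (1.06%) and 4 of 12 Mup genes, which encode major urinary proteins.

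The 4 Mup domains and 1 of the olfactory receptor domains, at Olfr596, lie in multi-copy sequence. In 16 domains more than 50% of the 36-mers occurred more than once in the genome, 14 of them were wide in 1 library, and 0 were wide in more than 2. Reads of such domains could come from several places. In 616 domains no 36-mer was repeated, and 0 domains held a 36-mer of the mitochondrial genome.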

How the data were processed

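Omni-ATAC-seq peak lists of 9 libraries were used, grouped by the labels. According to the methods and the submitters' processing notes, the authors trimmed the reads (TrimGalore), aligned them to mm10 (Bowtie2), filtered the alignments (Picard, SAMtools) and called broad peaks with MACS2 in each library alone, with no control. Each deposited list gives positions and a score, which is 10 times the -log10 q. The deposited fold ratio, -log10 p and -log10 q are the authors' averages over a peak, and class, gene and distance come from their annotation of the peak's centre. The methods name ChIPseeker for annotation, whereas the headers of the deposited lists give HOMER's annotatePeaks, run with a gene table whose origin is not given in the sources used here, so promoter-TSS and gene names are used as deposited. Their DiffBind and DESeq2 test of read counts was not rerun, and depth is unknown.

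Wide peaks were merged across libraries at 1 shared bp. The TSSs came from GENCODE M21, and sequence, soft-masking, 36-mer copies and motifs from GRCm38.p6. No sequence of chromosome 18 is shown. Tests were exact permutations over libraries, checked on simulated data, with adjusted p taken against 0.05. Python 3.11.15, numpy 2.4.6, pandas 2.3.3, scipy 1.17.1, numba 0.67.0 and matplotlib 3.10.9 were used.

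The members, gene lists, motifs and tests were chosen with earlier results of these data known. Genes were named by rule, namely the 10 widest domains, domains wide in all 9 libraries, up to 3 wide only in one group, up to 5 recurrent domains not of class promoter-TSS, up to 5 genes with several domains, 3 peaks on each side of the limit, and genes of the lists. Other genes, among them those of the remaining domains wide in 7 or more libraries, of neighbouring domains and of motif counts, were chosen after their values were seen. The results of 2 domains that the rules would name are not reported here.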

Additional observations from a re-analysis of the deposited data

How the results depend on the processing

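Depth was not known, so presence and width of a peak cannot be separated from it, and the 2 young WT Cre libraries rest on 8 and 15 wide peaks. Limits of 1200 and 2000 bp gave 7231 and 338 wide peaks and 2721 and 158 domains, leaving out 1 library gave 1724 to 2269 wide peaks and 817 to 950 domains, and merging peaks within 500 bp gave 950 domains. Of 289 alternative values, 202 kept their direction and side of the threshold, or their size.

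For wide minus narrower peaks, no library left out changed a call of promoter-TSS share (12.8 to 15.5 points), CpG ratio (0.256 to 0.308), soft-masked share (1.54 to 1.78), rank (-21.4 to -20.0) or median KLF density (0.632 to 0.677). At 2000 bp the promoter-TSS difference was -8.51 points and the median CTCF density difference 0.518 per kb, now past the threshold. With q below 0.01 the promoter-TSS difference was 5.01 points and the CpG difference 0.145, neither past it. Against as many of the strongest narrower peaks, the differences were -38.1 points in promoter-TSS share, -0.104 in CpG ratio, 29.1 percentile points in rank, by construction, 0.317 per kb in median KLF density, no longer past the threshold, -0.0587 in CTCF density and -15.9 points in centres within 1000 bp of a TSS. The pooled ETS difference was -0.0994 per kb.

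The comparisons of wide peaks between groups were less stable. At 1200 bp the promoter-TSS difference was -4.98 points by genotype and -9.67 by age, the CpG ratio differed by -0.0941 by age, and the soft-masked share by 0.706 and 0.981 points by genotype and age. At 2000 bp these 5 values were 12.5, 15.3, -0.115, 1.73 and 3.19, and with q below 0.01 they were -7.53, -9.91, -0.0789, 0.691 and 1.86, none past the threshold. In lists of equal length they were 6.12, 3.08, -0.0015, 0.174 and 1.02, and the CpG ratio differed by 0.0329 by genotype. Without 1 library they ranged from -12.0 to -4.08, -13.1 to -5.19, -0.0657 to -0.0541, 0.824 to 1.09 and 1.52 to 1.79. The smallest p is then larger because fewer arrangements exist, and no adjusted p passed. The replicate numbers did not pair the libraries, since same-numbered libraries of one age had correlations of -0.005 to 0.036 in their deviations. With a replicate block the genotype differences were -8.32 points in promoter-TSS share and 1.03 points in soft-masked share, past no threshold because 4 pairs allow too few arrangements. Causes of the other changes were not tested.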
